A study of Homo sapiens with 4 samples.

Results

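The kinetochore is the protein assembly that forms on the centromere of each chromosome and attaches it to spindle microtubules in mitosis. Its inner layer, built on nucleosomes with the histone variant CENP-A, stays on the centromere through the cell cycle, its outer layer binds microtubules, and the spindle assembly checkpoint signals from kinetochores that are not yet attached. The mRNAs of many kinetochore proteins are most abundant in proliferating cells, towards G2 and mitosis. The genes described here are the 41 protein-coding genes whose GENCODE v44 symbol is CENP followed by a single letter, or that encode named subunits of the KMN network (KNL1, MIS12 and NDC80 complexes), the SKA and RZZ complexes and the checkpoint. All 41 were among the 63677 genes of the deposited table, and all 41 passed the count filter, which kept 14645 genes.

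The RNA came from the nuclei of HCT116, an established line of human colorectal carcinoma, 48 h after transient transfection with a pcDNA3.1 plasmid encoding ORC1-3xFLAG, the tagged largest subunit of the origin recognition complex, from a codon-optimized cDNA. The 2 ORC1-FLAG IP libraries hold RNA recovered without crosslinking by the FLAG antibody M2, and the 2 Input libraries hold RNA of nuclear lysates with no antibody. All 4 libraries come from transfected cells. The reference was therefore Input alone, and RNA held by the beads or the antibody was not separated from RNA held by ORC1-FLAG. The study names duplicate FLAG experiments, but nothing in the labels says that the replicates were separate cultures. The p-values then measure only the spread between these libraries, which may be technical.

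Total counts ranged from 9213877 (Input replicate 2) to 27483148 (IP replicate 1). Levels are CPM, read counts relative to library size, after TMM scaling (a trimmed mean of the log ratios between libraries), and thus relative to the other RNAs of the library. The 5 epithelial markers (EPCAM, CDH1, KRT8, KRT18 and KRT19) lay between 46.8 and 2055 CPM in every library. Of the markers of other cell types, PTPRC, CD3E, PECAM1, COL1A2 and ALB had at most 4 counts in a library, and COL1A1 had 7.90 to 26.7 CPM. ORC1 itself was 15.2-fold higher in Input replicate 2 than in Input replicate 1.

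Setting IP against Input addresses which kinetochore mRNAs were recovered with ORC1-FLAG. Several mRNAs with long coding sequences were recovered above Input, among them those of CENPE, CENPF, KNL1 and the RZZ subunits KNTC1 and ZW10. Some small subunits of the inner kinetochore, among them CENPM, CENPX and CENPW, were recovered below Input, and so was the checkpoint protein MAD2L1. Other small subunits, such as CENPS (log2 fold change -0.63), CENPH (0.25) and CENPQ (0.78), did not reach the threshold given next. A gene was called enriched or depleted at a Benjamini-Hochberg adjusted p below 0.05 in edgeR with a log2 fold change above 1 or below -1. Of the 41 mRNAs, 11 were enriched (26.8%), against 10.5% of all tested genes, and 7 were depleted (17.1%), against 8.30%. The median log2 fold change of the 41 was -0.074, beside 0.0079 over all tested genes, with a range from -1.55 (CENPM) to 2.68 (CENPE). With the replicate number as a block, CENPC (log2 fold change 1.47, edgeR adjusted p = 0.0447) and CENPN (-1.02, edgeR adjusted p = 6.40e-05) were called as well. Both IP libraries were above both Inputs for 14 of the 41 (34.1%, against 33.2% of all tested genes) and below both for 11 (26.8%, against 31.9%).

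**Figure D1:**
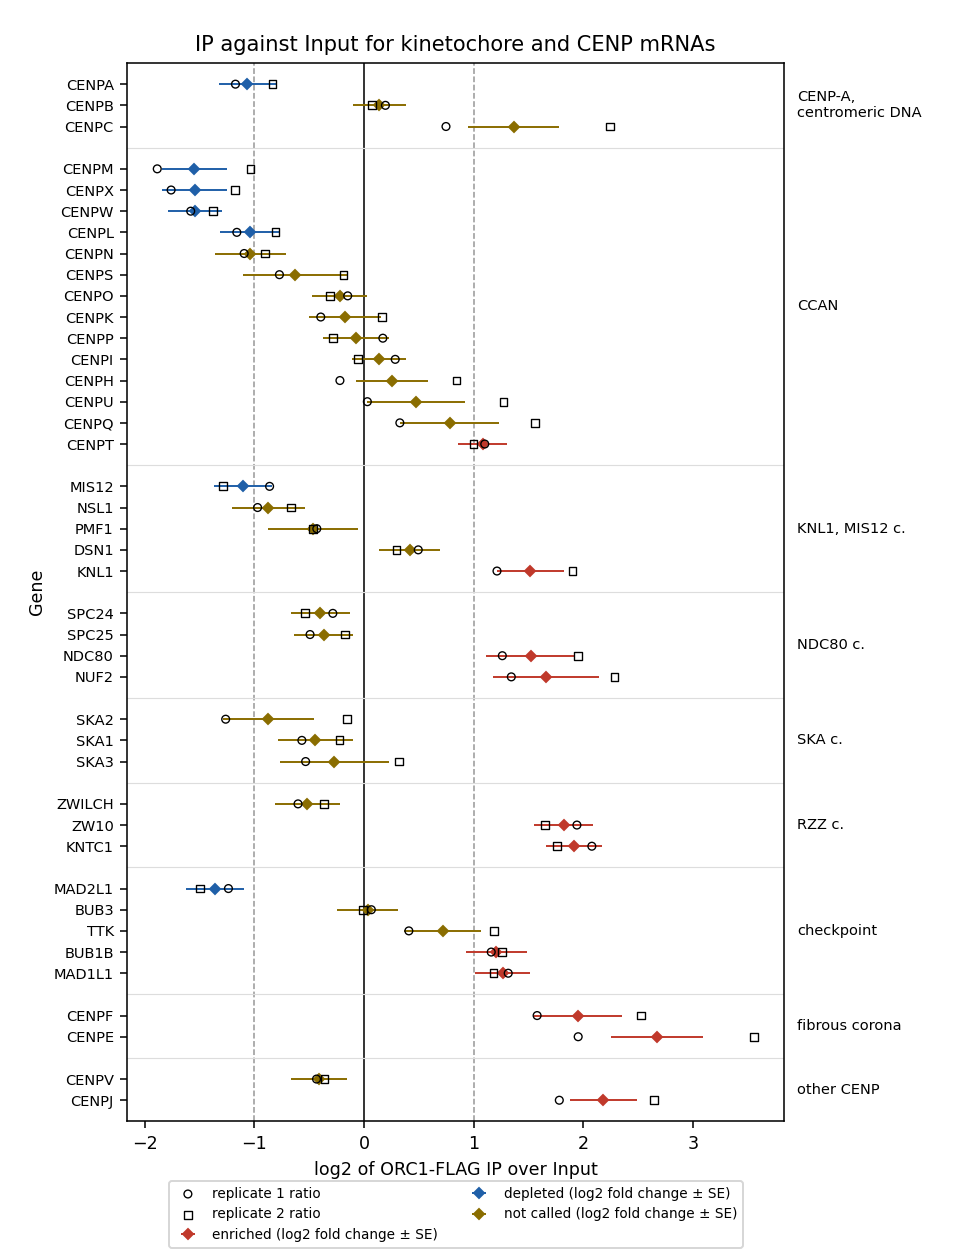
The horizontal axis gives log2 of ORC1-FLAG IP over Input for the 41 genes, grouped by role. Diamonds are edgeR log2 fold changes with their standard error (SE), circles and squares the ratios of replicates 1 and 2, and dashed lines mark -1 and 1. In every role group other than the SKA complex and the fibrous corona, log2 fold changes lie both past 1 and below 0.

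The fibrous corona is the outermost layer of the unattached kinetochore. CENPE, a kinesin motor that carries chromosomes towards the spindle equator, had the largest fold change of the 41 genes. Its level was 173 CPM in IP replicate 1 and 237 CPM in IP replicate 2, against 44.2 and 19.6 CPM in the Inputs. Both IP libraries were thus well above both Inputs, and the ratio was larger in replicate 2 (3.56 on the log2 scale) than in replicate 1 (1.95). With n = 2 in each group this gave 2.68 ± 0.42 (log2 fold change with its SE, edgeR adjusted p = 0.0118). The gene lies at chr4:103105349-103198445 on the minus strand. CENPF, a large coiled-coil protein that binds microtubules, stood at 1603 and 1443 CPM in the IPs against 536 and 250.4 CPM in the Inputs. The log2 fold change came to 1.95 ± 0.40 (SE, edgeR adjusted p = 0.0193), with both IP libraries above both Inputs. It lies at chr1:214603185-214664574 on the plus strand.

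The study lists a primer pair for amplifying CENPE cDNA, shown because it marks where on this mRNA, the most enriched of the 41, such an amplicon lies. Both matched the canonical CENPE transcript once, the forward primer in exon 48 and the reverse primer in exon 49 of 49, and they enclose 66 bases that start at base 7990 of the coding sequence, counted from the A of the start codon.
CENPE forward primer (chr4:103108804-103108824): tcaagtttaggcctttgtcca
CENPE reverse primer (chr4:103106273-103106292): acctggctgagaatccacac
The counts of the deposited table are summed over the whole gene and do not resolve this 3′ part of the coding sequence.

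The RZZ complex (ROD, ZW10 and ZWILCH) brings dynein and the MAD1-MAD2 checkpoint proteins to the kinetochore. KNTC1, which encodes ROD, stood at 267 and 278 CPM in the IPs against 62.9 and 81.5 CPM in the Inputs, that is 1.92 ± 0.26 on the log2 scale (SE, edgeR adjusted p = 0.0105). ZW10 stood at 226 and 161 CPM in the IPs against 58.4 and 50.9 CPM in the Inputs, that is 1.82 ± 0.27 on the log2 scale (SE, edgeR adjusted p = 0.0108). For both genes every IP library exceeded every Input library, and the ratio was larger in replicate 1. ZWILCH was not called, at -0.52 ± 0.29 (SE, edgeR adjusted p = 0.240), and its levels in IP and Input overlapped. The difference between ZWILCH and the other RZZ subunits was not tested.

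The KMN network is the main microtubule receptor of the kinetochore. KNL1, its scaffold for checkpoint proteins, stood at 372 and 366 CPM in the IPs against 159.9 and 97.5 CPM in the Inputs, a difference of 1.52 ± 0.31 on the log2 scale (SE, edgeR adjusted p = 0.0184). In the NDC80 complex, NDC80 and NUF2 form the end that binds microtubules, and SPC24 and SPC25 the end that binds the inner kinetochore. NUF2 stood at 108 and 72.5 CPM in the IPs against 42.0 and 14.5 CPM in the Inputs (log2 fold change 1.66 ± 0.48, SE, edgeR adjusted p = 0.0488). NDC80 stood at 157 and 113 CPM in the IPs against 65.0 and 28.8 CPM in the Inputs (1.52 ± 0.40, SE, edgeR adjusted p = 0.0376). For these 3 genes the IP and Input levels did not overlap, and the ratio was larger in replicate 2. SPC24 (-0.40) and SPC25 (-0.37) were not called, and the levels of both overlapped between IP and Input.

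The 4 subunits of the MIS12 complex, which joins the inner to the outer kinetochore, ranged from -1.10 (MIS12) over -0.87 (NSL1) and -0.47 (PMF1) to 0.42 (DSN1) on the log2 fold change scale. MIS12 was the only one called, with 8.98 and 6.43 CPM in the IPs against 16.7 and 16.4 CPM in the Inputs (-1.10 ± 0.26, SE, edgeR adjusted p = 0.0281). The SKA complex, which helps NDC80 to hold on to microtubules, had no member called, with log2 fold changes of -0.87 (SKA2), -0.44 (SKA1) and -0.27 (SKA3). SKA2 stood at 20.6 and 17.7 CPM in the IPs against 50.1 and 19.8 CPM in the Inputs. Both groups overlapped for SKA2, since Input replicate 2 lay between the IP libraries. The value depended on which Input library was kept, as the log2 fold change was -1.54 without Input replicate 2, where SKA2 was called depleted, and -0.0040 without Input replicate 1.

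In the spindle assembly checkpoint, 2 of 5 mRNAs were enriched (40%, against 10.5% of all tested genes) and 1 was depleted (20%, against 8.30%). Of all tested protein-coding genes from 2000 coding bases up, the size of the 2 enriched ones, 27.7% were enriched. Below 1000 bases, the size of the depleted one, 21.5% were depleted. MAD1L1, which recruits MAD2 to unattached kinetochores, stood at 102 and 77.5 CPM in the IPs against 40.8 and 33.9 CPM in the Inputs (log2 fold change 1.27 ± 0.25, SE, edgeR adjusted p = 0.0177). BUB1B, which encodes BUBR1, stood at 415 and 329.6 CPM in the IPs against 185 and 137 CPM in the Inputs (1.21 ± 0.28, SE, edgeR adjusted p = 0.0255). MAD2L1, which encodes the checkpoint effector MAD2, went the other way, with 50.7 and 35.2 CPM in the IPs against 120.1 and 100.5 CPM in the Inputs (-1.36 ± 0.27, SE, edgeR adjusted p = 0.0175). The levels of these 3 genes did not overlap between IP and Input. TTK, the kinase MPS1, was at 0.72 ± 0.36 (SE, edgeR adjusted p = 0.184), and BUB3, the WD40 partner of BUB1 and BUBR1, at 0.033 ± 0.28 (SE, edgeR adjusted p = 0.947). BUB3 lay between 244.6 and 332.3 CPM in the 4 libraries.

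The constitutive centromere-associated network (CCAN) is the set of inner kinetochore proteins that sit on CENP-A chromatin. Of its 14 mRNAs measured here, 1 was enriched (7.14%, against 10.5% of all tested genes) and 4 were depleted (28.6%, against 8.30%). The median log2 fold change was -0.20 and the median coding length 835.5 bases. Among all tested protein-coding genes below 1000 coding bases, 21.5% were depleted. CENPM, a subunit of the CENP-H/I/K/M group, stood at 4.51 and 6.26 CPM in the IPs against 18.0 and 13.4 CPM in the Inputs (-1.55 ± 0.30, SE, edgeR adjusted p = 0.0166). CENPX, a histone-fold partner of CENPS, stood at 15.6 and 13.9 CPM in the IPs against 53.9 and 32.2 CPM in the Inputs (-1.55 ± 0.30, SE, edgeR adjusted p = 0.0168). CENPW, the histone-fold partner of CENPT, stood at 8.74 and 7.91 CPM in the IPs against 27.1 and 21.3 CPM in the Inputs (-1.54 ± 0.25, SE, edgeR adjusted p = 0.0121). For these 3 mRNAs both IP libraries were below both Inputs. CENPL stood at 11.0 and 9.61 CPM in the IPs against 25.2 and 17.2 CPM in the Inputs (-1.04 ± 0.27, SE, edgeR adjusted p = 0.0355). CENPN, which pairs with CENPL and reads the CENP-A nucleosome, was at -1.04 ± 0.32 (SE, edgeR adjusted p = 0.0584), just short of the threshold.

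CENPT, which reaches from the inner kinetochore to the NDC80 complex, was the enriched member of the CCAN. It stood at 26.3 and 24.3 CPM in the IPs against 11.97 and 11.90 CPM in the Inputs, the closest replicates of the 18 called mRNAs in Input (1.08 ± 0.22, SE, edgeR adjusted p = 0.0190). The histone-fold partners CENPT and CENPW thus lay on opposite sides, and the same holds for the checkpoint partners MAD1L1 and MAD2L1, though neither difference was tested as such. The partners also differ in coding length, with 1683 bases in CENPT and 264 in CENPW, and 2154 in MAD1L1 and 615 in MAD2L1. The other 8 mRNAs of the network were not called and ranged from -0.63 (CENPS) over -0.22 (CENPO), -0.17 (CENPK), -0.074 (CENPP), 0.14 (CENPI), 0.25 (CENPH) and 0.48 (CENPU) to 0.78 (CENPQ). For CENPU and CENPQ the log2 ratios were 0.031 and 0.33 in replicate 1 and 1.27 and 1.56 in replicate 2, where Input was low.

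Of the proteins on centromeric DNA, CENPA, the histone H3 variant, stood at 7.88 and 7.45 CPM in the IPs against 18.4 and 13.7 CPM in the Inputs (-1.07 ± 0.26, SE, edgeR adjusted p = 0.0292). CENPC, which joins CENP-A nucleosomes to the MIS12 complex, stood at 55.4 and 62.7 CPM in the IPs against 32.8 and 12.8 CPM in the Inputs (1.36 ± 0.42, SE, edgeR adjusted p = 0.0549). Both IP libraries lay above both Inputs for CENPC and below both for CENPA. CENPB, which binds a motif of alpha satellite DNA, was at 0.14 ± 0.25 (SE, edgeR adjusted p = 0.711). Of the genes that carry a CENP symbol without being core kinetochore subunits, CENPJ encodes CPAP, a regulator of centriole length. CENPJ stood at 135 and 148 CPM in the IPs against 38.8 and 23.1 CPM in the Inputs, the second largest fold change of the 41 (2.19 ± 0.31, SE, edgeR adjusted p = 0.0107). CENPV was at -0.41 ± 0.25 (SE, edgeR adjusted p = 0.275).

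**Figure D2:**
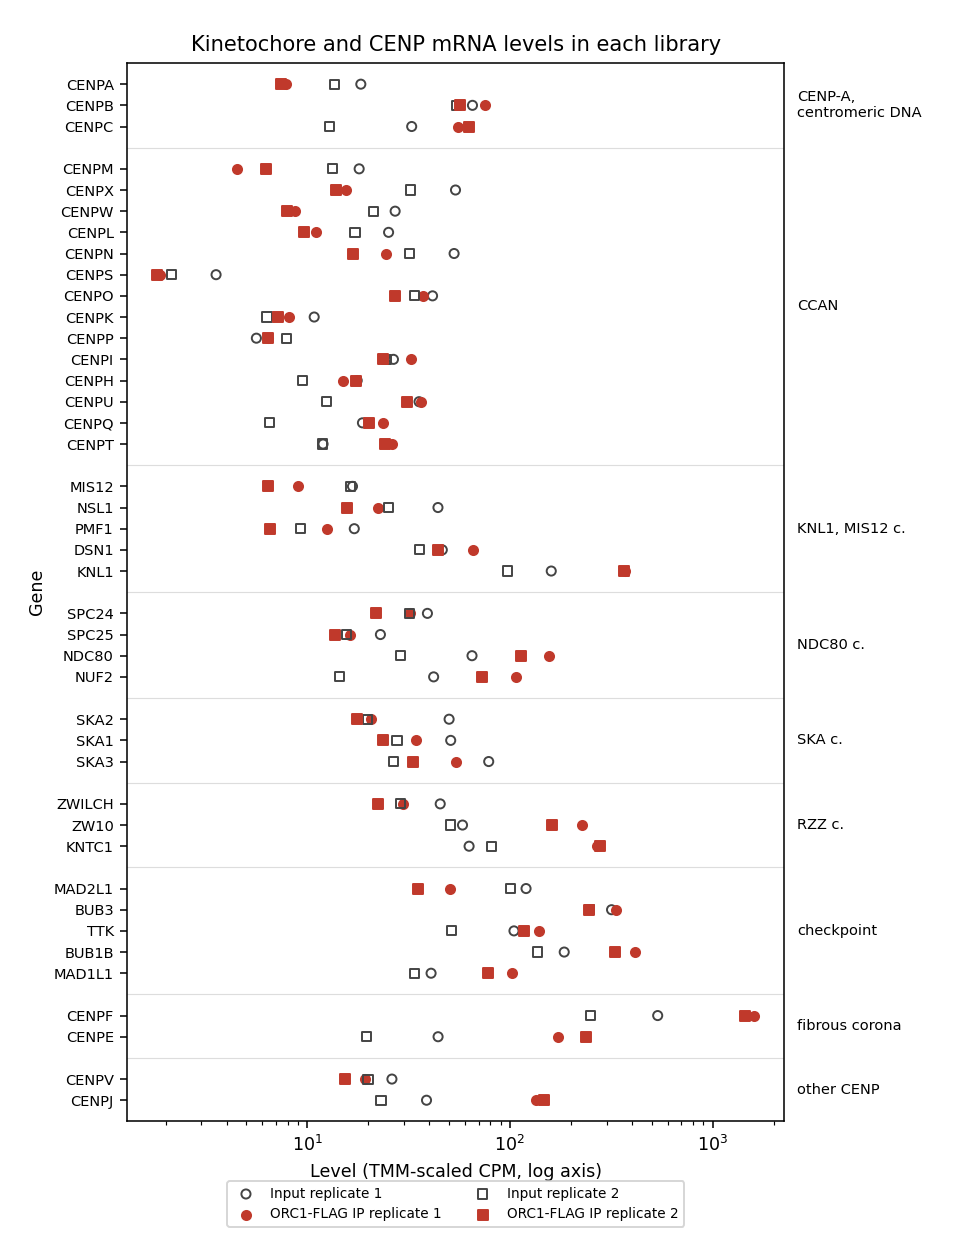
The horizontal log axis gives the TMM-scaled CPM of each gene in each of the 4 libraries. Open symbols are Input, filled symbols ORC1-FLAG IP, circles replicate 1 and squares replicate 2. For CENPE both filled symbols (173 and 237 CPM) are to the right of both open ones.

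Levels of different genes can be compared only per length. Per kilobase of exonic length, the Input level was 43.0 and 20.1 CPM for CENPF, 41.5 and 30.8 CPM for BUB1B and 38.8 and 30.2 CPM for BUB3 (replicates 1 and 2). It was 4.45 and 1.97 CPM for CENPE, and lowest for CENPP at 0.603 and 0.845 CPM. Across the 41 genes the mean Input level per kilobase and the log2 fold change were nearly unrelated (Spearman rho = -0.035, a description over genes measured in the same libraries).

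The fold changes followed the length of the coding sequence. Across the 41 genes, log2 fold change and coding length of the canonical transcript had a Spearman rho of 0.841 (0.839 with the ratios of replicate 1 and 0.781 with those of replicate 2), and across all 12542 tested protein-coding genes 0.589. These correlations are descriptions, as genes share libraries and are not replicates. With exonic length, which counts untranslated regions and the exons of all annotated transcripts of a gene, rho over the 41 was 0.470. Below 1000 coding bases, 0 of 20 genes were enriched and 6 were depleted, where 2.54% and 21.5% of the 3773 tested protein-coding genes of that size were called. From 2000 bases up, 8 of 11 were enriched and 0 depleted, where 27.7% and 0.429% of 3959 were called. The 3 genes of this size that were not called were CENPC, TTK and CENPI, with log2 fold changes of 1.36, 0.72 and 0.14.

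Genes of like length still differed. When all tested protein-coding genes were put into 10 bins of about equal size by coding length, 26 of the 41 lay above the median of their bin and 15 below, with a median difference of 0.18 on the log2 scale. NUF2 lay furthest above, 1.69 over the median of its bin (-0.027), with 1392 coding bases. CENPE lay 1.61 above, ZW10 1.37, NDC80 1.24 and CENPQ 1.14. CENPL, CENPN, MAD2L1 and ZWILCH lay furthest below, with differences of -0.84, -0.84, -0.83 and -0.80. All 5 mRNAs of the longest bin (CENPE, CENPF, KNL1, KNTC1 and CENPJ) were enriched, where the share over the 1253 genes of that bin was 46.6% and the median 1.07. That bin spans 3615 to 107973 coding bases with a median of 4926, so its genes are not of like length. KNTC1 (6627), KNL1 (6948), CENPE (8103) and CENPF (9342) are longer than that median, and CENPJ (4014) is shorter.

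**Figure D3:**
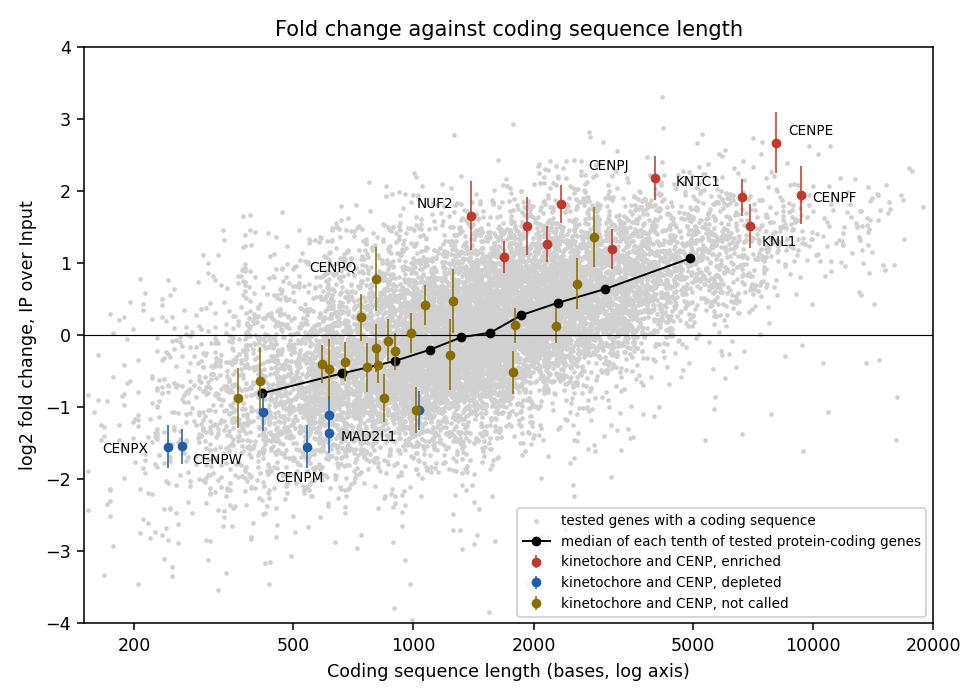
The vertical axis is the log2 fold change of IP over Input and the horizontal log axis the length of the coding sequence in bases. Grey points are tested genes with a coding sequence (21 of 12542 lie outside the axes), the black line joins the medians of 10 bins of tested protein-coding genes, and coloured points are the 41 genes with their SE. CENPX and CENPW sit at the short end near -1.55, and CENPE at the long end at 2.68.

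The study described tandem GAA repeats in RNAs bound by ORC1, found as an enriched motif in the largest transcripts. From crosslink positions and gel shifts it concluded that ORC1 does not bind RNA through this sequence. Here the exact GAAGAAGAA was searched on the sense strand of the canonical transcripts, and its reverse complement TTCTTCTTC as a reference. The shares below are thus not on the scale of the study's motif. GAAGAAGAA was present in 9 of the 41 transcripts (21.95%) and in 14.8% of all tested protein-coding genes, and TTCTTCTTC in 0 of 41 and 5.02%. All 9 repeats were in the coding sequence, and 8 of the 9 began on the first base of a codon, where the repeat reads as GAA, a glutamate codon. The sites are shown with 10 bases on either side, repeat in capitals, written as the mRNA sense strand with GRCh38 coordinates, because they let the repeats of enriched mRNAs be compared with those of mRNAs that were not called.
CENPF (chr1:214645408-214645436): tgtctgccttGAAGAAGAActctcagtgg
KNL1 (chr15:40625553-40625581): gtgggtacaaGAAGAAGAAgatattcata
NDC80 (chr18:2601416-2601444): gaatgaaactGAAGAAGAAattaataaag
CENPT (chr16:67829921-67829949, minus strand): gaaaaagatgGAAGAAGAAggtgtgagtg
CENPQ (chr6:49488435-49488463): aagtgaggtgGAAGAAGAAgaggagagag
CENPU (chr4:184725009-184725037, minus strand): atatgctgatGAAGAAGAAttctccaaac
BUB3 (chr10:123162294-123162322): ctgaggtacaGAAGAAGAAgtatgccttc
CENPK (chr5:65554829-65554857, minus strand): tacaaatactGAAGAAGAActtattagag
SPC25 (chr2:168889250-168889278, minus strand): gaaattaaagGAAGAAGAAcgaatggttg

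In this order the log2 fold changes fell from 1.95 (CENPF), 1.52 (KNL1), 1.52 (NDC80) and 1.08 (CENPT), all enriched, to 0.78 (CENPQ), 0.48 (CENPU), 0.033 (BUB3), -0.17 (CENPK) and -0.37 (SPC25), none called. The repeat of BUB3 was the one outside the codon frame. None of the 7 depleted transcripts held the repeat, and their median coding length was 540 bases against 3150 in the 11 enriched ones. The repeat was absent from CENPE, CENPJ, KNTC1 and ZW10, which had 4 of the 5 largest fold changes. These 4 still held the shorter GAAGAA, at 2.81, 3.15, 1.00 and 2.09 copies per kilobase of canonical transcript. Across all 41, copies of GAAGAA per kilobase and log2 fold change had a Spearman rho of 0.644, a description. This value was not computed over all tested genes, and in the same 41 coding length had a rho of 0.841 with fold change. A part of GAA content in recovery was not tested.

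The ratios of the 2 replicates mostly had the same sign but were not always of like size. On the log2 scale, CENPE had 1.95 in replicate 1 and 3.56 in replicate 2, CENPC 0.75 and 2.25, and SKA2 -1.26 and -0.16. Ratios of IP to Input, with 0.5 CPM added to both, had the same sign in both replicates for 35 of the 41 mRNAs. Over all tested genes this held for 12395 of 14645. It also held for all 18 called mRNAs, but the calls were made on these same libraries, so like ratios were partly built in. Across the 41, Pearson r between the replicate ratios was 0.898, beside 0.856 over all tested genes, a description across genes. The log2 ratio was above 1 in both replicates for 10 of the 11 enriched mRNAs, the exception being CENPT (1.10, and 1.00 just short of it). Of the 7 depleted, 4 were below -1 in both (CENPM, CENPX, CENPW and MAD2L1).

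**Figure D4:**
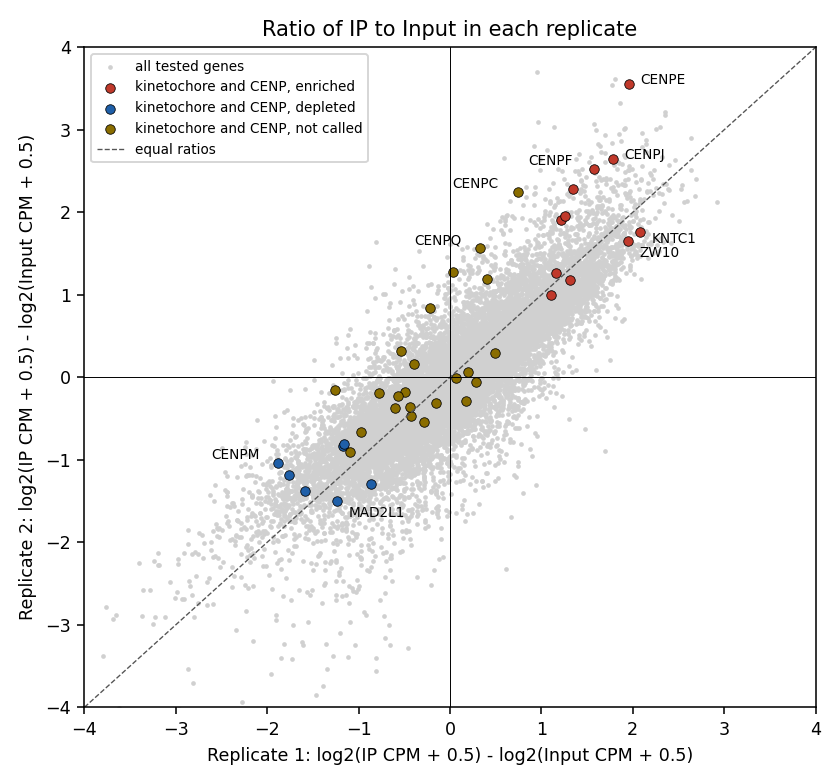
Each axis gives the log2 ratio of IP to Input of a replicate, with 0.5 CPM added to each level. Grey points are all tested genes (17 of 14645 lie outside the axes), coloured points the 41 genes, and the dashed line marks equal ratios. CENPE (1.95 and 3.56), CENPC and CENPQ lie above the line, and KNTC1 and ZW10 below it.

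The levels themselves differed between replicates. In Input, 39 of the 41 mRNAs were lower in replicate 2 than in replicate 1 (95.1%), with a median of -0.62 on the log2 scale, against 49.3% of all tested genes with a median of 0.0090. In IP, 35 of 41 were lower in replicate 2 (85.4% against 53.2%), with a smaller median of -0.24. A list of 31 genes for other proteins that load, regulate or bind the kinetochore differed in the same direction, with 31 of 31 lower in Input replicate 2 (median -0.44) and 90.3% lower in IP replicate 2. The largest differences in Input were those of SKA3 (-1.55), NUF2 (-1.51) and CENPU (-1.48). KNTC1 (0.37) and CENPP (0.45) were the 2 that were higher in Input replicate 2. These differences between replicates were not tested. In such bulk libraries, fewer cells that contain an mRNA and less of it per cell cannot be told apart. The replicates also differed in ORC1 level (above), and its part in the difference was not tested.

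**Figure D5:**
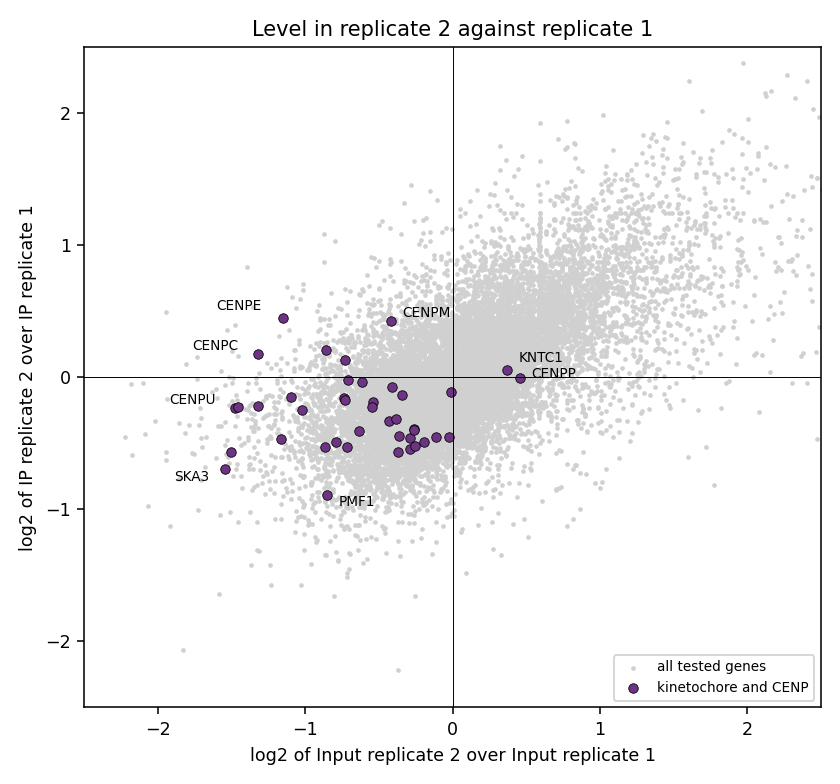
The horizontal axis gives log2 of Input replicate 2 over Input replicate 1, and the vertical axis the same for the IP libraries. Grey points are all tested genes (45 of 14645 lie outside the axes) and purple points the 41 genes, 39 of which lie left of 0.

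The calls depended in part on single libraries, and most on Input replicate 2, where nearly all of these mRNAs were low. Without it, 6 were enriched (9.23% of all genes tested in that fit) and 10 depleted (11.8%), and NUF2 (log2 fold change 0.95), NDC80 (0.90), BUB1B, MAD1L1 and CENPT lost the call, while CENPN (-1.51), NSL1 (-1.37) and SKA2 (-1.54) became depleted. Without Input replicate 1, 15 were enriched (11.9% of all genes), with CENPC, CENPQ, CENPU and TTK added, and 5 depleted (9.50%), with CENPA and CENPL lost. Without IP replicate 1, 9 were enriched (8.04%) and 6 depleted (5.27%), with NUF2, BUB1B, CENPT, CENPA and CENPL lost and CENPC and CENPN added. Without IP replicate 2, 12 were enriched (12.0%) with CENPC added, and 3 depleted (6.65%), with CENPA, CENPL, MIS12 and MAD2L1 lost. A fit left with a lone library in one group assumes that it varies like the other group.

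Of the 18 called mRNAs, 8 kept their call under these 4 fits and 8 other ways of scaling, filtering, blocking and testing, namely CENPE, CENPF, CENPJ, KNTC1, ZW10, CENPM, CENPX and CENPW. Scaling by library size alone gave 5 enriched (2.59% of all genes) and 14 depleted (22.2%), with KNL1, NDC80, NUF2, CENPT, BUB1B and MAD1L1 lost and CENPN, NSL1, SPC24, SKA1, SKA2, ZWILCH and CENPV added as depleted. RLE (relative log expression) size factors gave 9 enriched (9.75%) and 7 depleted (8.62%), without NDC80 and NUF2, and the upper quartile 10 (7.37%) and 9 (10.5%), without CENPT and with CENPN and NSL1. The replicate block gave 12 and 8 (13.4% of all genes in each direction). No count filter gave 12 (4.94%) and 8 (5.05%), and requiring 1 CPM or more in 2 libraries 11 (11.0%) and 8 (9.58%). DESeq2 gave 12 (11.0%) and 8 (9.24%), the same numbers with unadjusted p-values (11.7% and 11.1% of all genes), and limma voom 12 (10.5%) and 7 (7.74%). With no minimum fold change, edgeR gave 11 (13.0%) and 7 (9.96%). The glmTreat test, which asks for a fold change significantly past 1 on the log2 scale, called 0 of the 41 in either direction (0 and 0.00683% of all genes), with 12 at an unadjusted p below 0.05.

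Exons shared with another gene can change a count, and the strand setting of the counting is not stated. In GENCODE v44, 17 of the 41 genes share exonic bases with another gene. The read-through gene CENPS-CORT covers 65.0% of the exonic bases of CENPS and PMF1-BGLAP 23.3% of those of PMF1, on the same strand. ENSG00000286192, which was not among the counted genes, covers 43.2% of MAD1L1 on its strand. IPPK covers 39.9% of CENPP and ADCY3 26.97% of CENPO on the opposite strand. CENPS, PMF1, CENPP and CENPO were not called. Of the 17 genes, though, 4 were enriched (NUF2, CENPT, BUB1B and MAD1L1) and 4 depleted (CENPA, CENPX, CENPL and MIS12). CENPT shares 10.5% with TSNAXIP1 and 6.71% with THAP11, and MIS12 9.53% with DERL2, all on the opposite strand. CENPA shares 7.08% with SLC35F6 on the same strand. BUB1B shares 4.86% with BUB1B-PAK6. Of the 24 genes with no shared base, 7 were enriched (29.2%) and 3 depleted (12.5%). Pseudogenes named after 8 of the genes had at most 11 counts in any library.

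The mRNAs of other proteins that load, regulate or bind the kinetochore were compared in the same way. Of these 31 genes, all tested, 9 were enriched (29.0%, against 10.5% of all tested genes) and 1 was depleted (3.23%, against 8.30%), with a median log2 fold change of 0.63. In the chromosomal passenger complex, the Aurora B module of the inner centromere, INCENP (1.43) and CDCA8, which encodes borealin (1.34), were enriched, and AURKB (0.51) and BIRC5 (-0.17) were not called. The checkpoint kinase BUB1 was enriched at 1.13. Of the 12 microtubule and motor partners 6 were enriched, namely KIF18A (2.23), CKAP5 (1.91), CLIP1 (1.78), KIF2C (1.57), SPAG5 (1.48) and PAFAH1B1 (1.01). OIP5, a subunit of the MIS18 complex that prepares centromeres for new CENP-A, was depleted at -1.55. Across the 31 genes, log2 fold change and coding length had a Spearman rho of 0.675, a description.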

How the data were processed

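Native RIP-seq of HCT116 nuclei was analysed from raw read counts per Ensembl gene, as deposited by the authors. The study and the submitters' processing notes name Trimmomatic for trimming, STAR for alignment (hg19), removal of reads on GL contigs, and featureCounts. The annotation release, the strand setting and the treatment of multiple alignments are not given in the sources used here. GENCODE v44 on GRCh38, another build, was joined by gene identifier (97.4% of the 14645 tested genes matched), and all coordinates, lengths and sequences are from it. Total counts were 27483148 and 20280445 (IP) and 14677002 and 9213877 (Input). Reads carry no molecular identifiers.

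All genes were fitted together in edgeR 4.0.16 under R 4.3.3, using its quasi-likelihood F-test, robust dispersions, TMM factors and filterByExpr, with group as the only term. The script was tested on simulated data. SE was derived from the fold change and F statistic. Coding length excludes the stop codon. Replicate numbers mark the same RIP in the labels, and same-numbered libraries deviated together (Pearson r = 0.645 across tested genes), so a replicate block was an alternative. The other alternatives were 3 scalings, 2 count filters, DESeq2 1.42.0, voom of limma 3.58.1, glmTreat, 2 call rules, a pseudocount of 0.1 CPM in place of 0.5, and leaving out each library. The genes, lists and tests were chosen with earlier results of these data known. Every member is described, with values per library for called genes, the largest fold change of each role group and CENPE. Of the partner list the called genes are named, and AURKB and BIRC5 were added after their values were seen, to complete their complex.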

Additional observations from a re-analysis of the deposited data

How the results depend on the processing

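By library size alone, 5 of the 41 mRNAs were enriched and 14 depleted (over all genes 380 and 3257), with medians of -0.68 for the 41 and -0.59 over all genes, and 3 partners enriched and 3 depleted. With the upper quartile the median of the 41 was -0.25 (-0.16 over all genes). glmTreat called 0 and 0 of the 41, 0 and 0 partners (7 at an unadjusted p below 0.05), and 0 enriched and 1 depleted gene in all. The replicate block called 12 and 8 of the 41 (1960 and 1957 over all genes), adding CENPC and CENPN and changing no other call among the 41. Leaving out each library gave 6 to 15 enriched and 3 to 10 depleted of the 41, a median from -0.29 to 0.27, and a rho of fold change with coding length from 0.787 to 0.843. Partners ranged from 6 to 15 enriched and 0 to 1 depleted, and all genes from 1291 to 1936 enriched and 846 to 1801 depleted. With exonic length rho was 0.470. The 24 genes without shared exons, a choice made after seeing the data, held 7 enriched and 3 depleted, with a median of 0.20. No called mRNA of the 41 changed direction under any alternative run, and 12 uncalled ones did. By library size these were CENPB (-0.47), CENPI (-0.48), CENPH (-0.33), CENPU (-0.11), DSN1 (-0.20) and BUB3 (-0.58), and with the upper quartile CENPB (-0.032), CENPI (-0.043) and BUB3 (-0.14). Over the fits without 1 library the log2 fold change ranged from -0.14 to 0.37 for CENPB, -0.51 to 0.039 for CENPO, -0.65 to 0.31 for CENPK, -0.073 to 0.40 for CENPI, -0.26 to 0.82 for CENPH, -0.23 to 1.47 for CENPU, -0.99 to 0.088 for PMF1, -0.97 to 0.11 for SKA1, -0.999 to 0.76 for SKA3 and -0.29 to 0.29 for BUB3. CENPP ranged up to 0.035. The causes were not tested.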
